A study of Mus musculus with 4 samples.

Results

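Described here are 10 genes whose transcripts respond to insulin, to FoxO transcription factors or to glucocorticoids: Insr, Irs1, Irs2, Pik3r1, Foxo1, Txnip, Fkbp5, Zbtb16, Tsc22d3 and Sgk1. They were chosen by name as indicators of feeding state, and each is represented by the brightest probe set that carries its symbol alone. All 10 were measured, among 22180 genes in all. The tissue was brown fat (BAT) of male C57BL/6 mice aged 4 months on a chow diet, in 2 wild-type (WT) samples and 2 samples from Tsku knockout (KO) mice. Tsku encodes tsukushi, a secreted leucine-rich proteoglycan. The labels do not say how the deletion was made or whether it reaches every tissue, and they record neither the hour of collection nor whether the mice had eaten. They call the samples biological replicates and say no more of their origin, so p-values measure the spread between these samples only.

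Insulin binds its receptor on brown adipocytes, which phosphorylates the IRS adaptors and so recruits PI3K, AKT is activated, and AKT keeps FoxO proteins out of the nucleus. After a meal this raises glucose uptake and lipid synthesis, while in fasting FoxO returns to the nucleus and glucocorticoids, which rise with the daily activity cycle and with stress, act through their receptor on their own targets. Irs2 and Txnip are textbook examples of genes that FoxO or glucose regulate, and Fkbp5, Zbtb16, Tsc22d3 and Sgk1 are widely used readouts of the glucocorticoid receptor.

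Promoter windows were searched for motifs that such factors can bind, and a stretch each from Txnip, Irs1, Irs2, Fkbp5 and Sgk1 is printed below. RefSeq promoter windows (GRCm38.p6, 250 bases before to 50 after a start) matched 8 of the 10 genes, with 16 windows. Zbtb16 and Insr had none listed. Both strands were searched, and capitals mark every match in the 250 bases before the start, printed 5′ to 3′ on the gene's strand.
Txnip (chr3:96557707-96557956, plus strand): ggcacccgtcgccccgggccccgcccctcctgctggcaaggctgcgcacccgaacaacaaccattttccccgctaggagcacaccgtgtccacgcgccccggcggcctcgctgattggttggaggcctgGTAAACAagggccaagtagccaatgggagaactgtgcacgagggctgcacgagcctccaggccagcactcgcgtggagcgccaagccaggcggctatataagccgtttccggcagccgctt
Irs1 (chr1:82291440-82291689, minus strand): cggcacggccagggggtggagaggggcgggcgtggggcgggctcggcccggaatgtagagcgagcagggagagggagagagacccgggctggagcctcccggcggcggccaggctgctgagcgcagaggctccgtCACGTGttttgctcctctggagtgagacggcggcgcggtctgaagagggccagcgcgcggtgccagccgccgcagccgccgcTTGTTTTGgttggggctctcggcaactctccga
Irs2 (chr8:11008930-11009179, minus strand): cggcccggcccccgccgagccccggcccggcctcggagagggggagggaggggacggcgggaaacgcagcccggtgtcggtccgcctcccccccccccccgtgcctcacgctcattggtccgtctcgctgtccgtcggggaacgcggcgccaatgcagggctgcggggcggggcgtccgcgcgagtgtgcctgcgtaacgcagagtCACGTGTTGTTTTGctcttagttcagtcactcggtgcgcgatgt
Fkbp5 (chr17:28486150-28486399, minus strand): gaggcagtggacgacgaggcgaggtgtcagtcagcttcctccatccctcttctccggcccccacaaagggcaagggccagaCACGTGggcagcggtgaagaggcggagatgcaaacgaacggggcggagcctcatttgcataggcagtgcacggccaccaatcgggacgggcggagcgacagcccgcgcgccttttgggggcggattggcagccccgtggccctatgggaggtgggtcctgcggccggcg
Sgk1 (chr10:21993640-21993889, plus strand): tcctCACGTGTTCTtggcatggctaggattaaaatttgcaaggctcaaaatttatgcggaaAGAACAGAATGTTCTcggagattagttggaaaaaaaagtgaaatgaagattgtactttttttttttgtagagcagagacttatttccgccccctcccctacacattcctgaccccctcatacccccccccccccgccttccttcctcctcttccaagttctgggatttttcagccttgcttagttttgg

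The forkhead motif GTAAACA lay 121 to 115 bases before the Txnip start and in 3.65% of all 32851 windows. The insulin response element CAAAACAA, read as TTGTTTTG on the gene's strand, lay in the windows of Irs1 and Irs2 and in 2.51% of all windows. In Irs2 it followed directly on the E box CACGTG, a site that glucose-responsive and lipogenic factors share, with no base between them. The E box was also present in Irs1, Fkbp5 and 1 of the 6 Sgk1 windows, and in 7.15% of all windows. That Sgk1 window also held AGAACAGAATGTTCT, 189 to 175 bases before its start, a match to the glucocorticoid palindrome, in which the arm AGAACA and its reverse complement TGTTCT stand 3 bases apart. Only 3 of all windows held the palindrome. The single arm, which is part of the palindrome, was found in 19% of windows, among them 4 member windows, of Sgk1 and Tsc22d3. Of these only the Sgk1 window with the palindrome is printed. In the printed Sgk1 window the arm before the palindrome, on the other strand, overlaps the end of the E box. The cAMP response element TGACGTCA was found in 0 member windows and in 1.79% of all windows. A match describes letters in the window and does not show that a factor binds there. Sequence outside the windows was not searched, so a window without a match does not show that a gene lacks a site.

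Each array gave a log2 expression value for 41345 probe sets, with array medians between 0.56 and 0.58. Background was set on each array at the 95th percentile of 1405 probe sets for odorant (Olfr) and vomeronasal (Vmn) receptors, and lay between 0.63 and 0.81. Tsku had 0 probe sets listed under its symbol alone, so the deletion was not checked here. The tissue label was checked against 10 brown adipocyte markers, of which 9 were above background on all 4 arrays. The uncoupling protein gene Ucp1 read 9.52 and 9.37 in WT and 9.99 and 10.001 in KO. The lipid droplet gene Cidea read between 9.37 and 9.52 on the 4 arrays. RNA of other tissues was also present and differed between arrays: the summed level of 15 skeletal muscle markers, on a log2 scale, was 8.31 and 8.84 in WT and 7.64 and 6.13 in KO. With 2 arrays per genotype precision is low: the 95% interval of a log2 difference reached, in the median gene, 0.52 to each side.

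The comparison of KO with WT asked how transcripts of these genes differ in brown fat when Tsku is absent. None of the 10 genes passed the threshold in limma (adjusted p between 0.872 and 0.997). The largest differences were a higher Irs1 and a lower Pik3r1 in KO, each by about 0.5 on the log2 scale, and the other 8 genes lay between -0.27 and 0.13. Of all 22180 genes, 0 (0%) had a limma adjusted p under 0.05 and 1234 (5.56%) an unadjusted p under 0.05. The count of the 10 genes at an unadjusted p under 0.05 was 0. The WT and KO values did not overlap in 2 of the 10, Irs1 upward and Pik3r1 downward, against 35.2% of all genes. Over the 10 genes 4 were higher and 6 lower in KO, with a median log2 difference of -0.15, beside 0.02 over all genes. That median was -0.008 without KO replicate 1, 0.01 without KO replicate 2 and -0.07 without WT replicate 1, so its sign rests on single arrays.

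**Figure D1:**
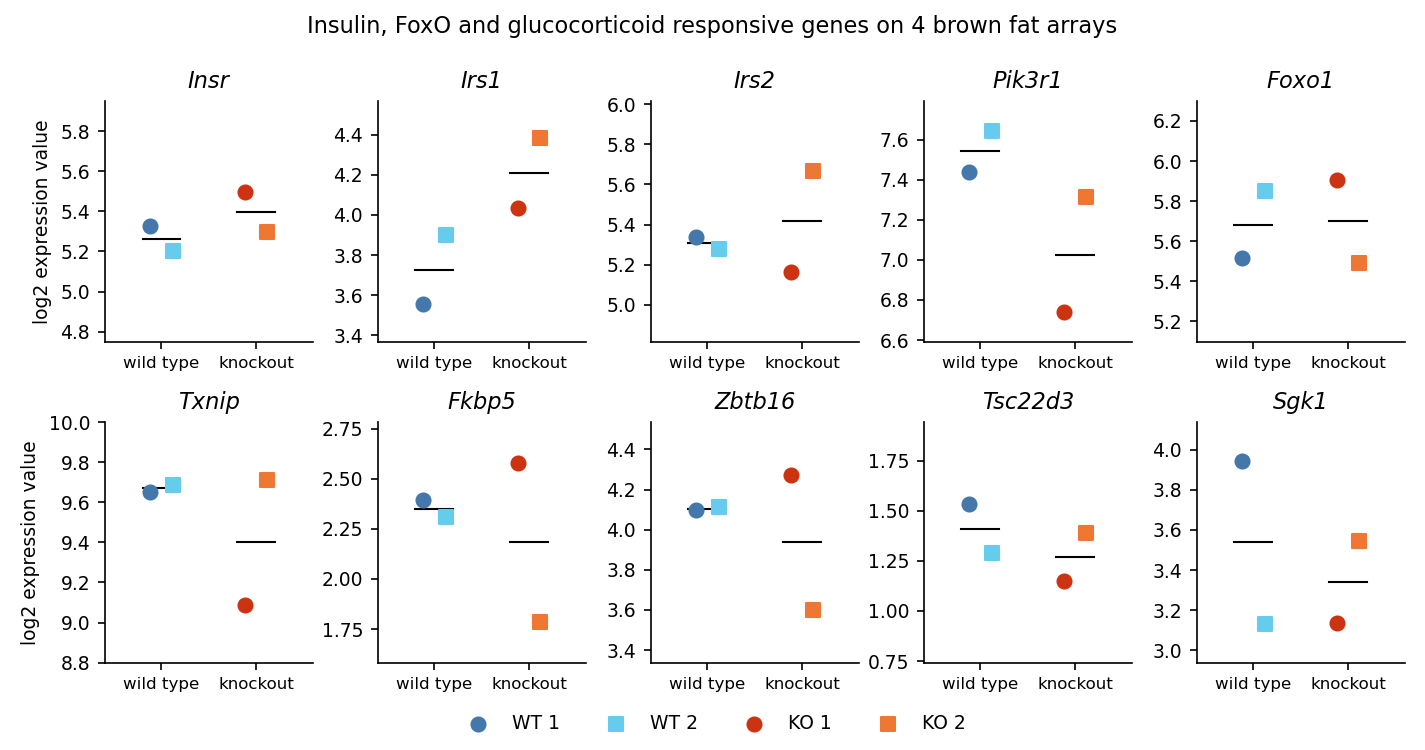
Log2 expression value (vertical axis, each panel spanning the same range of log2 units) of the 10 genes on each array, with WT and KO side by side; points are single arrays and black lines the means of the 2 arrays. Only Irs1 and Pik3r1 have genotypes that do not overlap, and the KO arrays lie far apart for Fkbp5, Zbtb16, Txnip and Pik3r1.

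The receptor and its adaptors come first. Insr, the insulin receptor, read 5.32 and 5.20 in WT and 5.50 and 5.30 in KO (replicates 1 and 2 in this order, here and below). The genotypes overlapped, since KO replicate 2 lay between the WT arrays. The difference was 0.13 on the log2 scale (SE 0.19, 95% interval -0.34 to 0.60). Of the 10 genes Insr had the smallest range over the 4 arrays.

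Irs1, an adaptor that the activated receptor phosphorylates, read 3.55 and 3.90 in WT and 4.04 and 4.38 in KO. Both KO arrays were above both WT arrays, but the nearest pair, WT replicate 2 and KO replicate 1, was closer together than the arrays of either genotype. The log2 difference was 0.48 (SE 0.23, 95% interval -0.08 to 1.04, limma unadjusted p = 0.0793, adjusted p = 0.872). Leaving out single arrays gave 0.31 to 0.65. A second Irs1 probe set was below background on all 4 arrays, and averaging it in lowered the difference to 0.09.

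Irs2, the adaptor whose transcript insulin represses through FoxO in liver, read 5.34 and 5.28 in WT and 5.17 and 5.67 in KO. The WT arrays lay inside the range of the KO arrays. Its log2 difference was 0.11 (SE 0.23, 95% interval -0.46 to 0.67), and it turned to -0.14 without KO replicate 2. The 2 adaptors thus gave different pictures in KO replicate 1, which had the lowest Irs2 of the 4 arrays and an Irs1 above both WT arrays.

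Pik3r1, which encodes regulatory subunits of PI3K and is also glucocorticoid responsive, read 7.44 and 7.64 in WT and 6.74 and 7.31 in KO. KO replicate 1 was the lowest array, while KO replicate 2 lay just under WT replicate 1. The log2 difference was -0.52 (SE 0.25, 95% interval -1.13 to 0.10, limma unadjusted p = 0.0859, adjusted p = 0.872). It was -0.23 without KO replicate 1 and -0.80 without KO replicate 2. In the same samples the 15 skeletal muscle markers were all lower in KO, with a median of -1.74, and 10 macrophage markers were all lower, with a median of -0.53. The muscle median was -2.20 without KO replicate 1 and -0.95 without KO replicate 2. The macrophage median was -0.12 without KO replicate 1 and -0.83 without KO replicate 2. The summed macrophage level was 8.01 and 8.07 in WT and 7.14 and 8.08 in KO. For muscle it was 8.31 and 8.84 in WT and 7.64 and 6.13 in KO. The macrophage level was thus lowest in KO replicate 1, as Pik3r1 was, and the muscle level in KO replicate 2. None of the markers of either list was below background on all arrays. The part of these cells in the Irs1 and Pik3r1 differences was not tested. In bulk tissue, fewer cells of a type and less RNA per cell cannot be told apart.

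**Figure D2:**
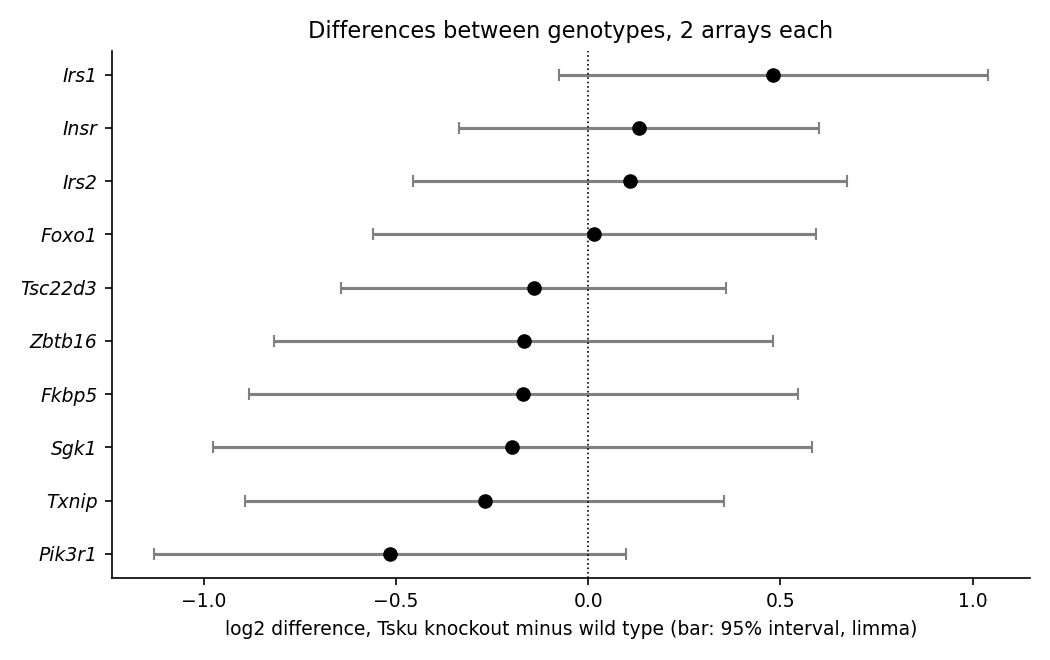
Log2 difference between Tsku knockout and wild type (horizontal axis) for each of the 10 genes, with 2 arrays per genotype; bars are 95% intervals from limma. Every interval includes 0, and Irs1 (0.48) and Pik3r1 (-0.52) lie farthest from it.

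Foxo1, the main FoxO factor of adipose tissue, read 5.52 and 5.85 in WT and 5.91 and 5.49 in KO. The arrays split across genotypes, with WT replicate 1 and KO replicate 2 low and the other two high. The log2 difference was 0.02 (SE 0.24, 95% interval -0.56 to 0.59), and it was -0.15 without WT replicate 1, -0.19 without KO replicate 1 and -0.009 with quantile normalization repeated.

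Txnip, an arrestin-domain protein that binds thioredoxin and limits glucose uptake, read 9.65 and 9.68 in WT and 9.09 and 9.71 in KO. KO replicate 1 stood apart from the other arrays, which lay between 9.65 and 9.71. The log2 difference was -0.27 (SE 0.25, 95% interval -0.89 to 0.35). It turned to 0.04 without KO replicate 1 and was -0.58 without KO replicate 2. A further probe set that the annotation gives jointly to Txnip and Gm15441 was left out by the naming rule.

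The 4 glucocorticoid readouts differed in which array was high. Fkbp5, a co-chaperone that restrains the glucocorticoid receptor and is induced by it, read 2.39 and 2.31 in WT and 2.58 and 1.79 in KO. The 2 KO arrays were the highest and the lowest of the 4, and the WT arrays lay close together between them. Its log2 difference was -0.17 (SE 0.29, 95% interval -0.88 to 0.55), and it was 0.23 without KO replicate 2.

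Zbtb16, a zinc finger repressor induced by glucocorticoids, read 4.10 and 4.11 in WT and 4.28 and 3.60 in KO. It showed the same order of KO arrays as Fkbp5 around a pair of nearly equal WT values. The log2 difference was -0.17 (SE 0.27, 95% interval -0.82 to 0.48), and it was 0.17 without KO replicate 2.

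Tsc22d3, which encodes the glucocorticoid-induced leucine zipper, read 1.53 and 1.29 in WT and 1.15 and 1.39 in KO. These are low readings, above background on all 4 arrays but near it, where array summaries understate differences. KO replicate 1 was lowest and the genotypes overlapped, with a log2 difference of -0.14 (SE 0.20, 95% interval -0.64 to 0.36). Single arrays left out gave -0.27 to -0.02.

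Sgk1, a kinase that glucocorticoids and PI3K signals both control, read 3.94 and 3.13 in WT and 3.14 and 3.55 in KO. Here the WT pair was the wider, with a gap of 0.81 that exceeded the gap of 94.6% of all genes between these arrays. The log2 difference was -0.20 (SE 0.32, 95% interval -0.98 to 0.58), and it was 0.21 without WT replicate 1 and 0.01 without KO replicate 1. Sgk1 is the gene whose window holds the palindrome printed above. Its array order differed from that of Fkbp5 and Zbtb16. WT replicate 1 was highest and KO replicate 2 next, as for Tsc22d3. No glucocorticoid motif was found in the Fkbp5 window and Zbtb16 had no window, so motifs and array order were not compared.

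The gap between the KO arrays was wider than that between the WT arrays for most of the 10 genes, but not for Sgk1 and Tsc22d3, and for Irs1 it was nearly equal. Over the 10 the gap between the KO arrays had a median of 0.46, against 0.16 between the WT arrays, while over all genes both gaps had a median of 0.23, and this was not tested. The difference between genotypes was smaller than the larger of the within-genotype gaps in 9 of the 10 genes and in 77.4% of all genes. Fkbp5 had the widest KO gap, 0.79, followed by Zbtb16 at 0.68, Txnip at 0.63, Pik3r1 at 0.57 and Irs2 at 0.50.

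The KO arrays also took opposite places from gene to gene. KO replicate 1 was the highest of the 4 arrays for Zbtb16, Foxo1, Fkbp5 and Insr and the lowest for Txnip, Tsc22d3, Irs2 and Pik3r1. KO replicate 2 was the highest for Txnip, Irs1 and Irs2 and the lowest for Zbtb16, Foxo1 and Fkbp5. In all, 4 genes (Foxo1, Insr, Fkbp5 and Zbtb16) read higher in KO replicate 1 than in KO replicate 2, and 6 (Txnip, Irs1, Irs2, Pik3r1, Tsc22d3 and Sgk1) read lower, so the 4 glucocorticoid readouts lay on both sides. Over all genes KO replicate 1 was the highest array in 27.9% and the lowest in 25.3%. Each order rests on 1 array, so it describes these samples and was not tested.

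**Figure D3:**
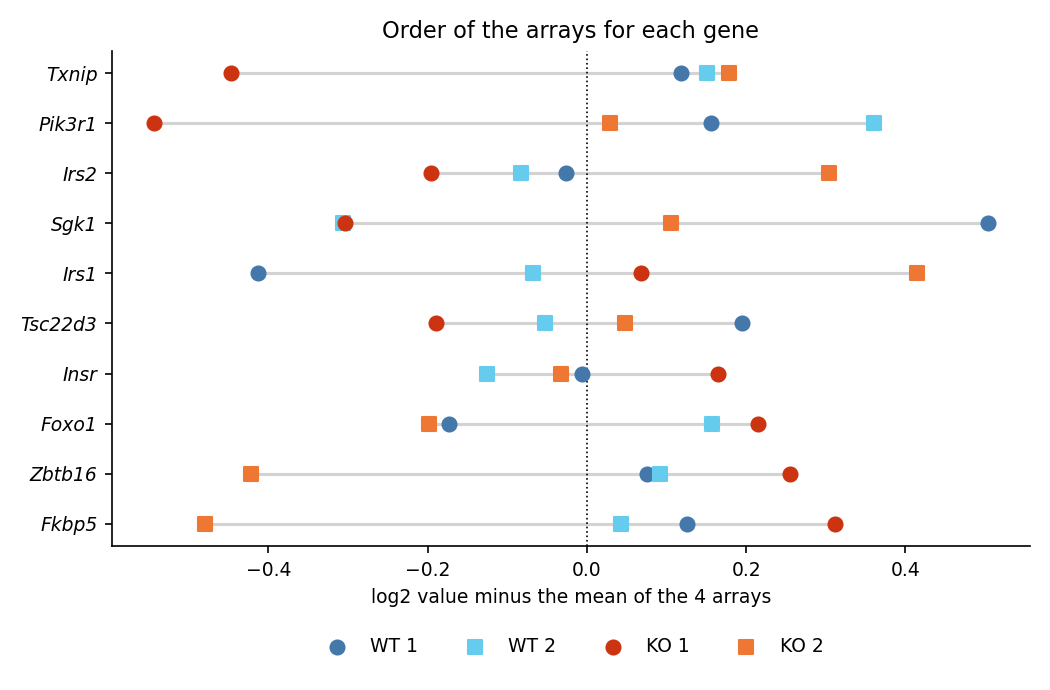
Log2 value of each gene minus its mean over the 4 arrays (horizontal axis), with genes sorted by KO replicate 2 minus KO replicate 1; points are single arrays and grey lines their range. KO replicate 1 is leftmost for Txnip, Pik3r1, Irs2 and Tsc22d3, and KO replicate 2 is leftmost for Foxo1, Zbtb16 and Fkbp5.

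Cell type markers differed between the same KO arrays. All 10 macrophage, all 10 endothelial and all 6 mural markers read lower in KO replicate 1 than in KO replicate 2. The summed endothelial level was 9.35 and 9.13 in WT and 9.13 and 9.55 in KO, and the mural level 9.54 and 9.29 in WT and 9.11 and 9.35 in KO. In contrast, 12 of 15 skeletal muscle markers and all 9 measured liver markers read higher in KO replicate 1. The summed liver level was 5.01 and 4.55 in WT and 6.46 and 5.39 in KO, with Cyp3a11 below background on all arrays. Against WT, the median log2 difference in KO was 0.36 for brown adipocyte markers (10 of 10 higher), 0.04 for endothelial, -0.17 for mural, -0.18 for fibroblast and 0.12 for the 7 measured lymphocyte markers, of which Cd3d and Ms4a1 were below background on all arrays. Without KO replicate 1 and without KO replicate 2 in turn, the brown adipocyte median was 0.16 and 0.60, the endothelial 0.23 and -0.14, the mural -0.09 and -0.30 and the lymphocyte 0.24 and 0.22. The fibroblast median was -0.03 without WT replicate 1 and -0.04 without KO replicate 2, and the adipocyte median, 0.09, was 0.02 without WT replicate 2. The summed level of the 9 measured adipocyte markers ran from 11.69 to 11.85 over the 4 arrays. The part of these cells in the spread of the 10 genes within KO was not tested.

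**Figure D4:**
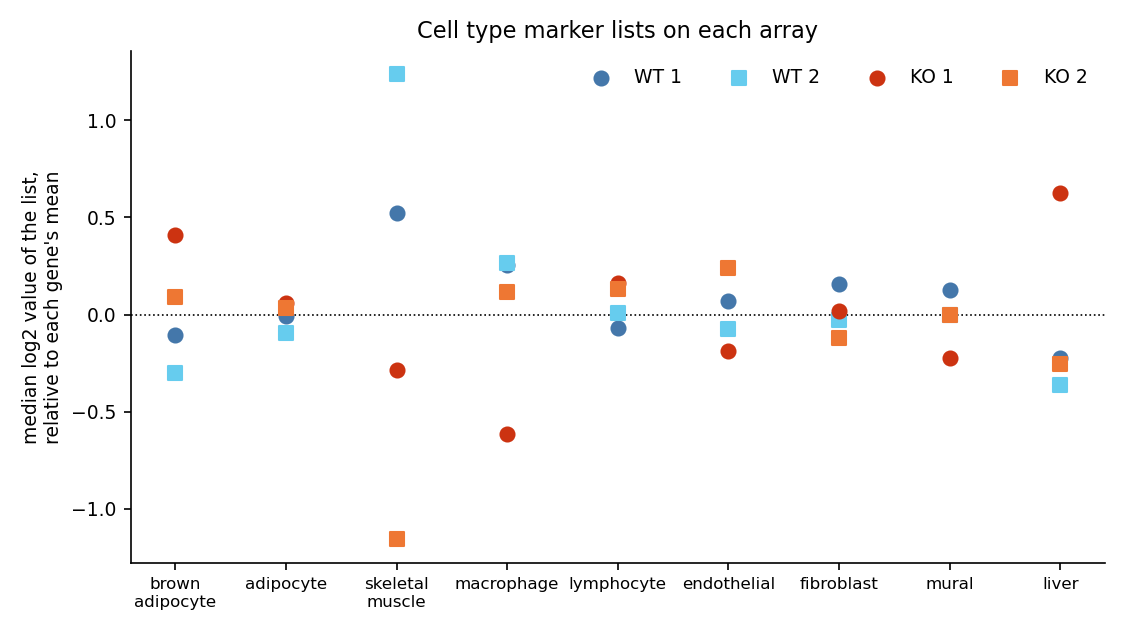
Median log2 value of each cell type marker list relative to each gene's own mean over the arrays (vertical axis), by array. The KO arrays separate for skeletal muscle (-0.29 and -1.16), macrophage (-0.61 and 0.12) and liver (0.63 and -0.25) markers, and all arrays lie close together for adipocyte markers.

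The rest of the insulin pathway was described by 33 measured genes, of which 20 were higher and 13 lower in KO, with a median log2 difference of 0.04 beside 0.02 over all genes. That median was 0.14 without WT replicate 1, 0.09 without KO replicate 1 and 0.06 without KO replicate 2. Values did not overlap between genotypes in 11 upward and 2 downward, against 19.4% and 15.8% of all genes. None passed over all genes. At an unadjusted p under 0.05 there were 3 higher and 0 lower, where 2.89% of all genes were higher and 2.67% lower by that rule. The 3 were Inppl1, an inositol phosphatase that opposes PI3K (0.71, SE 0.23), Pik3cb, a catalytic subunit of PI3K (0.61, SE 0.23), and Sh2b2, an adaptor of the insulin receptor (0.69, SE 0.26).

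Akt2, the AKT kinase that drives insulin-stimulated glucose uptake, read 5.63 and 5.70 in WT and 6.22 and 6.01 in KO. Its genotypes did not overlap, and its log2 difference was 0.45 (95% interval -0.01 to 0.92). Akt1, its close relative, differed by 0.01 (95% interval -0.44 to 0.46). The other PI3K regulatory subunits had wide intervals, with 0.27 for Pik3r2 (-0.46 to 1.0001) and -0.20 for Pik3r3 (-0.92 to 0.51).

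Igf1r, the receptor for insulin-like growth factor, read 2.47 and 2.03 in WT and 1.77 and 3.28 in KO, so the KO arrays enclosed the WT arrays as they did for Irs2. Sgk3, a relative of Sgk1, read 4.53 and 4.83 in WT and 4.75 and 3.90 in KO, with KO replicate 2 lowest. Sgk2 was above background on 1 array only, and Irs4 was below it on all 4 arrays.

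FoxO factors and their reported targets gave 25 measured genes, 11 higher and 14 lower in KO, with a median of -0.04. Arrays of the genotypes did not overlap in 4 upward and 3 downward, against 19.4% and 15.8% of all genes. None passed, and 1 had an unadjusted p under 0.05, against 5.56% of all genes. That was Bcl6, a transcriptional repressor, which read 5.59 and 5.07 in WT and 6.01 and 6.60 in KO (log2 difference 0.98, SE 0.29, limma adjusted p = 0.872). The list's median turned to 0.09 without WT replicate 1 and 0.11 without KO replicate 1, and was -0.16 without KO replicate 2 and -0.11 without WT replicate 2. Sesn3, a stress-induced regulator of growth signalling, differed by -0.44 (SE 0.29), and Bnip3, a mitophagy receptor, by -0.28 (SE 0.19).

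Pdk4, the kinase that shuts off pyruvate oxidation in fasting, read 9.22 and 9.25 in WT and 9.03 and 9.17 in KO. Pck1, which makes glycerol phosphate for fat synthesis in adipose tissue, read 9.52 and 9.65 in WT and 9.86 and 9.69 in KO. Neither overlapped between genotypes, with log2 differences of -0.13 (95% interval -0.58 to 0.31) and 0.19 (-0.27 to 0.65).

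Among the other FoxO factors, Foxo4 read 3.57 and 3.80 in WT and 2.98 and 3.82 in KO, with KO replicate 1 lowest as for Txnip. Foxo3 read 2.03 and 1.33 in WT and 1.44 and 2.06 in KO, and its genotypes overlapped. Foxo6, Igfbp1 and Trim63 were below background on all 4 arrays.

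Genes of glucocorticoid action gave 26 measured members, 10 higher and 16 lower in KO, with a median of -0.08 that turned to 0.09 without KO replicate 1 and was -0.19 without KO replicate 2. None passed over all genes. At an unadjusted p under 0.05 there were 3 higher and 3 lower, against 2.89% and 2.67% of all genes. The genotypes did not overlap in 8 upward and 9 downward, against 19.4% and 15.8% of all genes.

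Hsd11b1, the enzyme that regenerates active glucocorticoid inside cells, read 2.94 and 3.65 in WT and 4.29 and 4.15 in KO. Both KO arrays were above both WT arrays (log2 difference 0.92, SE 0.28, 95% interval 0.25 to 1.601, limma adjusted p = 0.872). Nr3c1, the glucocorticoid receptor itself, read 5.69 and 5.85 in WT and 5.40 and 5.52 in KO. Its values were lower in KO without overlap, by -0.31 with an interval from -0.77 to 0.15.

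Per1, a clock gene with a glucocorticoid response element, read 5.48 and 5.65 in WT and 4.89 and 5.02 in KO. The gap between genotypes was wider than either within-genotype gap (log2 difference -0.61, SE 0.19, limma adjusted p = 0.872). Rasd1, a small GTPase gene first described as dexamethasone-induced, differed by 0.59 (SE 0.21) and Arrdc2, an arrestin-domain gene, by 0.52 (SE 0.19). Lcn2 and Errfi1 made up the lower side, at -0.65 (SE 0.26) and -0.70 (SE 0.28). Arrdc2 in WT (1.31 and 1.22) and Lcn2 in KO (1.125 and 1.25) lay near background.

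Other glucocorticoid targets showed smaller differences. Klf9 read 7.12 and 7.10 in WT and 6.92 and 7.15 in KO, and Mt2, a metallothionein, ran from 6.68 to 6.74 over the 4 arrays. Dusp1, a phosphatase of MAP kinases, read 6.73 and 6.66 in WT and 6.72 and 7.48 in KO, where KO replicate 2 alone was high. Angptl4, an inhibitor of lipoprotein lipase, read 7.76 and 7.60 in WT and 6.79 and 7.83 in KO, where KO replicate 1 alone was low. Cdkn1a, a cell cycle inhibitor, differed by -0.14 with overlapping genotypes.

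Within KO, 21 of these 26 genes read lower in replicate 1, against 50.3% of all genes. Fkbp5 and Zbtb16 had the opposite order, and Tsc22d3 and Sgk1 the order of the list. The endothelial, mural and macrophage markers above were all lower in the same array, and their part was not tested.

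Glucose-responsive genes and the arrestin-domain relatives of Txnip gave 17 measured genes, 11 higher and 6 lower in KO, with a median of 0.15. WT and KO did not overlap in 8 upward and 3 downward, against 19.4% and 15.8% of all genes. None passed, and 2 higher and 1 lower had an unadjusted p under 0.05, against 2.89% and 2.67% of all genes. The list's median was 0.10 without WT replicate 2 and 0.25 with the mean of all probe sets. The 3 genes were Mlx, the partner of the glucose-sensing factors (0.65, SE 0.22), Khk, which phosphorylates fructose (0.57, SE 0.22), and Arrdc1 (-0.65, SE 0.18). Tkfc, a further enzyme of fructose use, differed by 0.44 (SE 0.18).

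Arrdc4, the relative that glucose induces together with Txnip, read 2.45 and 1.23 in WT and 1.44 and 2.55 in KO. Its KO replicate 1 was low, as for Txnip, but WT replicate 2 was lower still, which Txnip did not show. Arrdc3 ran from 3.97 to 4.23 with overlapping genotypes. Slc2a4, the insulin-sensitive glucose transporter, read 6.59 and 6.57 in WT and 6.87 and 6.86 in KO. Its arrays agreed closely within each genotype, and the log2 difference was 0.28 (95% interval -0.16 to 0.72).

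**Figure D5:**
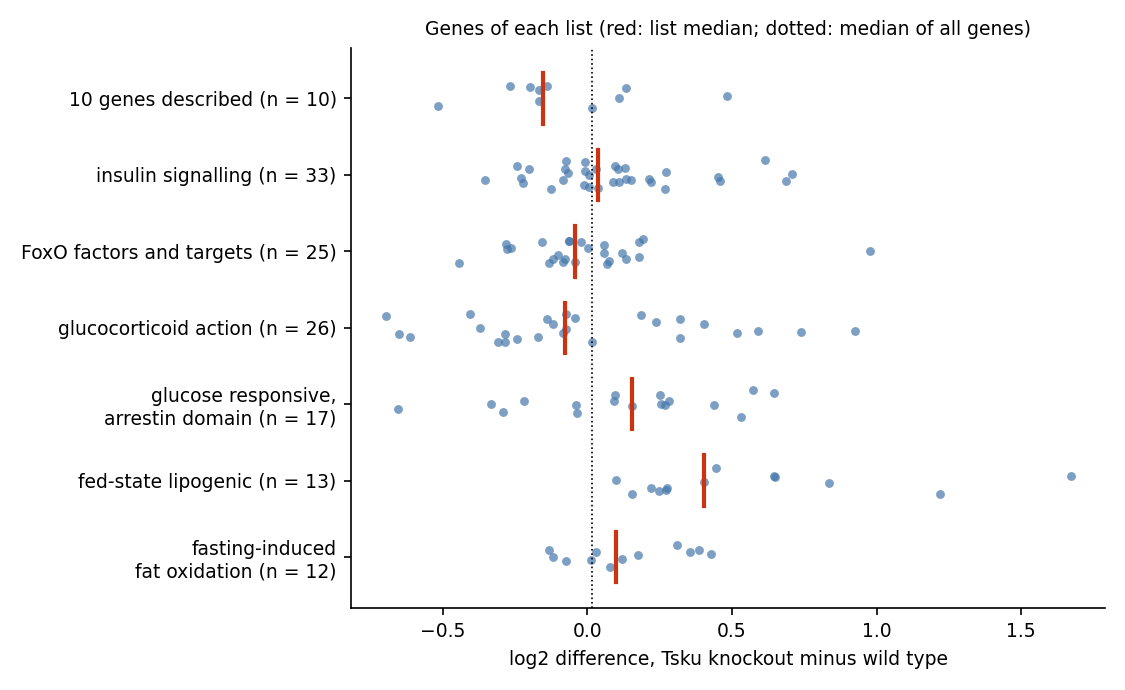
Log2 difference between Tsku knockout and wild type (horizontal axis) for the genes of each list; points are genes, red lines list medians and the dotted line the median of all genes (0.02). The fed-state lipogenic genes all lie above 0 with a median of 0.40, and the other medians lie between -0.15 and 0.15. That direction of the lipogenic genes was already known when their list was drawn up.

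Genes that insulin and feeding induce for fat synthesis were set beside the 10 genes. Since the labels do not say whether the mice had eaten, the list cannot be read as showing a fed state. All 13 measured were higher in KO, against 52.6% of all genes, with a median log2 difference of 0.40. This direction was already known for lipogenic genes in these arrays when the list was drawn up. The genotypes did not overlap in 12, against 19.4% of all genes in that direction. In limma 5 had an unadjusted p under 0.05, against 2.89% of all genes in that direction, and none passed over all genes. Fasn, the fatty acid synthase, read 6.74 and 7.16 in WT and 8.96 and 8.28 in KO. Srebf1, whose product drives this programme, read 4.50 and 4.77 in WT and 5.36 and 5.20 in KO. Pnpla3 differed by 1.22 (SE 0.28) and Me1, which makes NADPH, by 0.84 (SE 0.28). In the same samples the brown adipocyte markers had a median of 0.36 (10 of 10 higher), the adipocyte markers one of 0.09, the muscle markers one of -1.74 and the macrophage markers one of -0.53. The liver markers had a median of 0.54 (8 of 9 higher), which was -0.06 without KO replicate 1 and 0.85 without KO replicate 2. The part of these cells was not tested.

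Genes of fat oxidation that fasting induces gave 12 measured members, with a median of 0.10. In KO 9 were higher and 3 lower, where 52.6% of all genes were higher. None passed and 0 had an unadjusted p under 0.05, against 5.56% of all genes. Values did not overlap between genotypes in 5 upward and 0 downward, against 19.4% and 15.8% of all genes. Acot1 and Cyp4a14, both on the lower side, were below background on all 4 arrays. Plin5, a lipid droplet coat protein, differed by 0.43 (95% interval -0.13 to 0.98), Vnn1, a pantetheinase, by 0.35 (-0.09 to 0.80) and Ehhadh, a peroxisomal enzyme, by 0.31 (-0.47 to 1.09). Fgf21, a hormone induced in fasting and cold, was above background on 2 arrays only. The list's median was 0.19 without WT replicate 1.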

How the data were processed

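Total RNA of brown fat from 2 wild-type and 2 Tsku knockout samples was hybridised to whole-transcript arrays, per the labels' protocols. The authors deposited a table of normalized log2 values. The submitters' processing notes name RMA, oligo and limma without roles, and the genome build is not given in the sources used here. RMA gives log2 values, hence the base, but the deposited log2 values sit below its usual range for an unexplained reason. A constant offset would cancel in log2 differences, but whether the shift is constant was not checked. Of 41345 probe sets 23521 had 1 symbol, and the brightest per gene was kept, which gave 22180 genes. Probe sets with several symbols were left out (1 each for Txnip and Irs2).

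KO was set against WT with limma 3.58.1 under R 4.3.3 (functions lmFit and eBayes), two-sided, no block and Benjamini-Hochberg adjustment over all genes, called at an adjusted p under 0.05. The step was tested on simulated data. The 10 genes, the 6 pathway and 9 marker lists, which share no gene, were chosen with earlier results of these data known. All 10 genes are named, with a panel of 24 companions where measured and up to 4 genes of smallest unadjusted p per pathway list (above background on at least 2 arrays). Lcn2 and Errfi1 complete a count, and genes below background on all arrays are named as such. Motifs were searched with Python 3.11.15. Alternatives were a replicate block, a filter on dim genes, other probe sets, 3 normalizations, a variance trend, array weights and each array left out. Scan dates were not used here.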

Additional observations from a re-analysis of the deposited data

How the results depend on the processing

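None of the 10 genes passed an adjusted p of 0.05 in any alternative run. Genes passing over the whole table numbered 0, 1 with the replicate block, 1 with the variance trend and 0 to 15 without single arrays. Replicate numbers are shared by WT and KO, but deviations of same-numbered arrays correlated at -0.07 across genes, so the numbers were not taken as pairs, and the block left 0 of the 10 genes at an unadjusted p under 0.05. That count was 1 with the trend (Pik3r1) and 0 to 2 without single arrays. Averaging probe sets left 1 of the 10 genes without overlap. Signs turned in 10 of 122 comparisons: Foxo1 was -0.009 with repeated quantile normalization, and the second Irs1 probe set gave -0.30. Without single arrays Txnip ran from -0.58 to 0.044, Foxo1 from -0.19 to 0.22, Sgk1 from -0.60 to 0.21, Zbtb16 from -0.51 to 0.17, Fkbp5 from -0.56 to 0.23 and Irs2 from -0.14 to 0.36. List medians moved by more than the spread between arrays in 25 comparisons and by less in 167. Causes were not tested. Tsc22d3 and Fkbp5 lie nearest to background, which limits what these arrays show of them.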
